A study of Bos taurus with 21 samples.

Results

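The insulin-like growth factor (IGF) system of foetal cattle muscle was followed through 10 genes: the ligands IGF1 and IGF2, the receptors IGF1R and IGF2R, and the binding proteins IGFBP2, IGFBP3, IGFBP4, IGFBP5, IGFBP6 and IGFBP7. These were 10 of the 12538 genes named on the array. Their 33 probes were all those whose transcript accession maps to 1 of these genes in the cattle annotation. The expression filter, a group mean above 0 in at least 7 of the 8 breed and stage groups, was passed by 27 of these probes and 8 of the genes. IGF1R and IGFBP2 did not pass it and are described from a fit without the filter.

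The arrays compared 2 French beef breeds, the heavily muscled Blonde d'Aquitaine (BA) and the Charolais (CH), at 110, 180, 210 and 260 days post conception (dpc). BA had 3, 2, 3 and 2 foetuses and CH 2, 3, 3 and 3 foetuses at these stages, 21 in all, with 1 single-colour array for each foetus. The study treats BA as carrying a mutation of MSTN, the gene of the growth inhibitor myostatin, but not every BA animal has it, and per the study these foetuses were not genotyped. No foetus was treated, each breed had 2 sires, and 13 foetuses were female and 8 male. No sire served both breeds, so breed and sire cannot be told apart. The BA foetuses at 180 dpc shared a sire, and those at 260 dpc shared the other. Sexes were uneven too: the BA foetuses at 180 and 260 dpc were all female, whereas 2 of the 3 CH foetuses at 260 dpc were male. Arrays at 110 dpc lay on slides 1, 3, 5 and 6, and those at 260 dpc on slides 2, 4 and 5. Only slide 5 held both stages, and scan day 3 had no array at 260 dpc. Stage and slide can therefore be told apart only in part. The sample labels name Longissimus thoracis as the muscle, whereas the study's methods name Semitendinosus. All 5 fibre markers with a probe, among them CKM, MYH1 and ACTA1, were well above background on every array.

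IGF1 and IGF2 are secreted peptides that drive growth of foetal tissues, IGF2 being the main ligand before birth. Both signal through the tyrosine kinase IGF1R, whereas IGF2R takes up IGF2 for breakdown in lysosomes. The binding proteins hold the ligands outside cells, which can either limit or prolong their action, and proteases release the ligands from them. In myoblasts, IGF2 made by the cells themselves promotes differentiation.

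A level is given throughout as normalized log2 intensity. It is the log2 intensity less the 75th percentile of its array, plus a constant of 2.69 that puts 0 at the median probe of a typical array. A difference of levels is in log2 units. The signal of a probe also depends on its sequence, so levels were not compared between probes. Each gene was represented by the brightest of its tested probes. Differences were tested with limma over all 20132 tested probes, and a gene was called at a Benjamini-Hochberg adjusted p under 0.05. Each array had 29017 to 34501 of 43653 probes well above background, and no probe of the array was saturated.

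Between 110 and 260 dpc, averaged over the breeds, IGF1, IGF2 by its brightest probe and IGFBP7 rose, and IGF2R, IGFBP3 and IGFBP5 fell. In the authors' unscaled values, in which the median difference of all tested probes was −0.36 in place of 0.04, none of the 3 rises was called. Of the 11 IGF2 probes, 6 were lower at 260 than at 110 dpc, by −0.33 to −0.24 with none called. IGFBP4 and IGFBP6 were not called. Of the 8 tested genes, 3 were thus higher and 3 lower at 260 dpc, beside 33.8% higher and 31.5% lower among the 7932 named genes with a tested probe. The median difference of the 8 genes was −0.04, beside 0.03 over all 7932. The share of calls in the system was therefore near that of the whole array, and the genes differed from each other in their courses. In RNA from whole muscle, fewer cells of a type and less RNA per cell cannot be told apart.

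**Figure D1:**
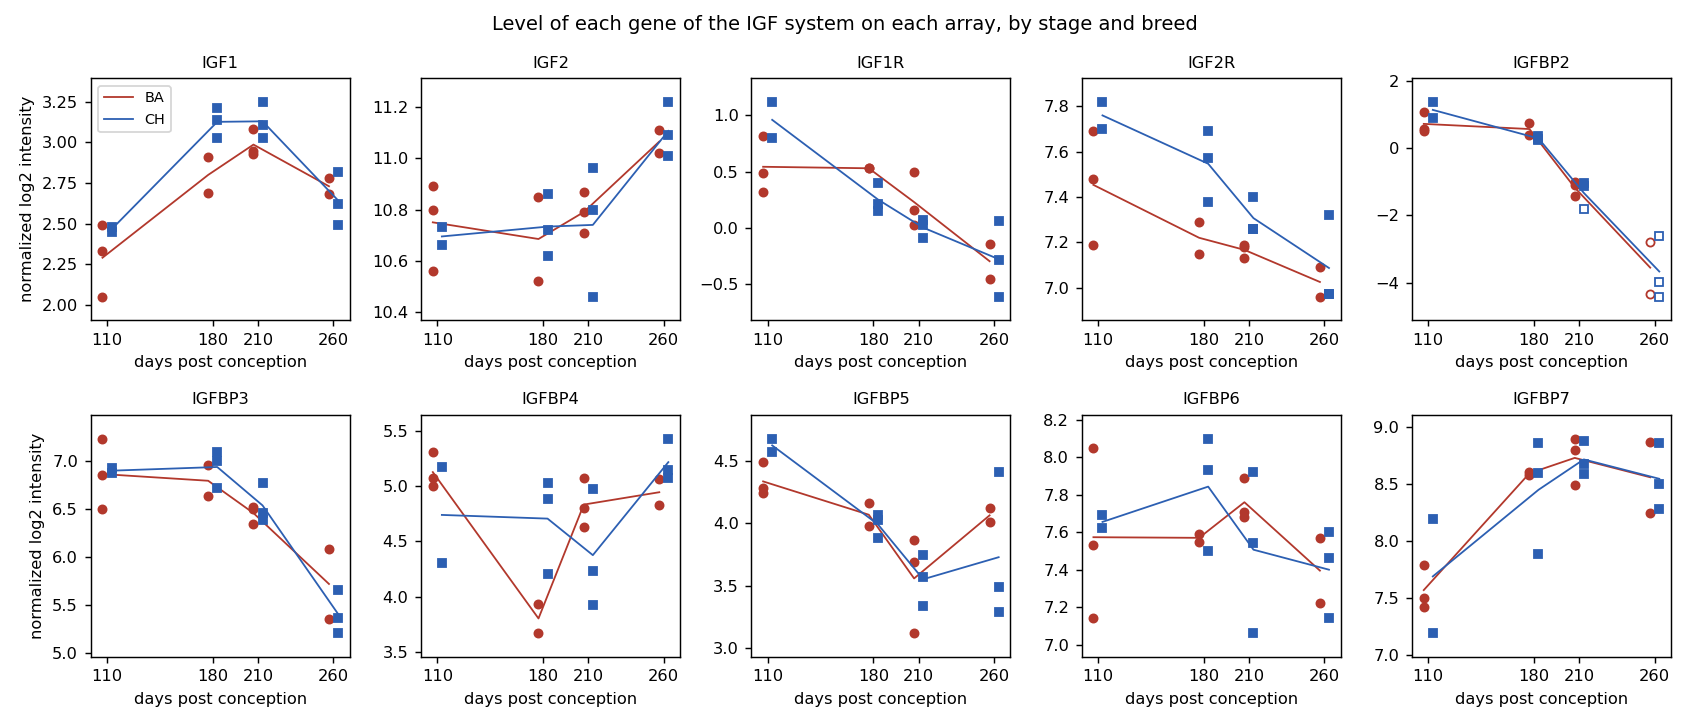
Normalized log2 intensity (y axis, a separate scale for each gene) against days post conception (x axis) for the brightest probe of each of the 10 genes. Circles are BA foetuses, squares CH foetuses, lines join group means, and open symbols are arrays on which the probe was not well above background, as for IGFBP2 on all 5 arrays at 260 dpc.

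IGF1, the ligand that carries much of the action of growth hormone after birth, was highest in mid-gestation by its brightest probe, A_73_P108301. Its levels at 110 dpc were 2.33, 2.05 and 2.49 in BA and 2.48 and 2.45 in CH. At 180 dpc they were 2.69 and 2.91 in BA and 3.21, 3.03 and 3.14 in CH. All 5 arrays at 180 dpc lay above all 5 at 110 dpc.

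At 210 dpc the IGF1 levels were 3.08, 2.95 and 2.93 in BA and 3.03, 3.11 and 3.25 in CH. At 260 dpc they were 2.78 and 2.68 in BA and 2.62, 2.82 and 2.49 in CH, so that every array at 260 dpc lay below every array at 210 dpc. The rise from 110 to 180 dpc was 0.59 ± 0.09 (SE, limma adjusted p = 0.00023), a 1.5-fold change. From 180 to 210 dpc the difference was 0.10 ± 0.09 (adjusted p = 0.56). From 210 to 260 dpc IGF1 fell by 0.37 ± 0.09 on the log2 scale (adjusted p = 0.0028).

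The net change of IGF1 from 110 to 260 dpc was 0.31 ± 0.09 (adjusted p = 0.0085). This net rise lost its call with slide as a block (0.26, adjusted p = 0.23) and turned to −0.08 (adjusted p = 0.76) in the authors' unscaled values. The rise to 180 dpc was 0.61 in those values (adjusted p = 0.08). On the second scan day alone the net rise was 0.38 (adjusted p = 0.054). The other 2 IGF1 probes, A_73_P032221 and A_73_P102596, were under the filter. In the unfiltered fit they differed by 0.64 and 0.50 from 110 to 180 dpc (adjusted p = 0.083 and 0.064) and by −0.13 and −0.06 from 210 to 260 dpc (adjusted p = 0.72 and 0.84). From 110 to 260 dpc both were called higher in that fit, by 0.62 and 0.60 (limma adjusted p = 0.038 and 0.008). The early rise and the late fall of IGF1 were thus each called by 1 of its 3 probes.

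IGF2, which is expressed from the paternal allele in most foetal tissues, had 11 probes, all tested. They followed 2 different courses, and the split described here was seen in these data. By the sign of their difference from 210 to 260 dpc, 5 probes were higher and 6 lower at 260 dpc.

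The brightest probe, A_73_P348406, belonged to the set of 5. Its levels at 110 dpc were 10.56, 10.89 and 10.80 in BA and 10.66 and 10.73 in CH. At 260 dpc they were 11.02 and 11.11 in BA and 11.01, 11.22 and 11.09 in CH, all above every array at 110 dpc. This probe rose by 0.36 ± 0.10 from 110 to 260 dpc (limma adjusted p = 0.006), with 0.32 ± 0.10 of it after 210 dpc (adjusted p = 0.014) and −0.02 ± 0.10 before 180 dpc (adjusted p = 0.93).

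The whole-interval rise of the brightest probe became a called fall with quantile normalization (−0.18, adjusted p = 0.012) and missed the threshold in female foetuses alone (0.28, adjusted p = 0.07). Over the 5 probes of this set, the differences from 210 to 260 dpc were 0.17 to 0.36, with 3 of 5 called, and those from 110 to 180 dpc were −0.07 to 0.05, with none of 5 called and none at an unadjusted p under 0.05. The direction of this late rise depended on the scale. With quantile normalization the differences of the 5 probes were −0.35 to −0.12, and in the authors' unscaled values their differences were −0.24 to −0.05. Without the second BA array at 260 dpc, the late rise of the brightest probe was 0.30 with an adjusted p of 0.062.

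Averaged over the breeds, the other 6 probes were highest in mid-gestation and fell before term. For A_73_P509823, the levels were 6.64, 6.64 and 6.54 in BA and 7.43 and 7.28 in CH at 110 dpc, and 7.72 and 7.65 in BA and 7.33, 7.81 and 7.66 in CH at 180 dpc. At 210 dpc they were 7.76, 7.71 and 7.23 in BA and 7.14, 7.89 and 7.73 in CH. At 260 dpc they were 6.55 and 6.66 in BA and 6.87, 6.57 and 6.80 in CH. Every array at 260 dpc lay below every array at 180 and 210 dpc.

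The 6 probes differed by 0.37 to 0.66 from 110 to 180 dpc, with 5 of 6 called higher and A_73_P248201 not called (adjusted p = 0.12), and by −0.90 to −0.67 from 210 to 260 dpc, with 6 of 6 called lower (limma adjusted p from 4.5e-05 to 0.0017). From 110 to 180 dpc the group mean of A_73_P102806 went from 7.98 to 8.95 in BA and from 8.76 to 8.78 in CH, and that of A_73_P248201 from 7.60 to 8.28 in BA and from 8.32 to 8.40 in CH. Whether the breeds differed in this step was not tested. From 110 to 260 dpc 5 of the 6 were called lower in CH and none in BA, a difference between breeds that was not called. Their late fall was called in every alternative that measured single probes. Between 180 and 210 dpc none of the 11 probes was called and none had an unadjusted p under 0.05. Among all named genes, 13.6% were called higher and 11.5% lower from 110 to 180 dpc, 4.85% higher and 4.98% lower from 180 to 210 dpc, and 25.4% higher and 21.6% lower from 210 to 260 dpc. The 11 probes carry the same accession and their sequences and positions in the transcript were not used here, so it was not tested whether the courses belong to different transcript forms.

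**Figure D2:**
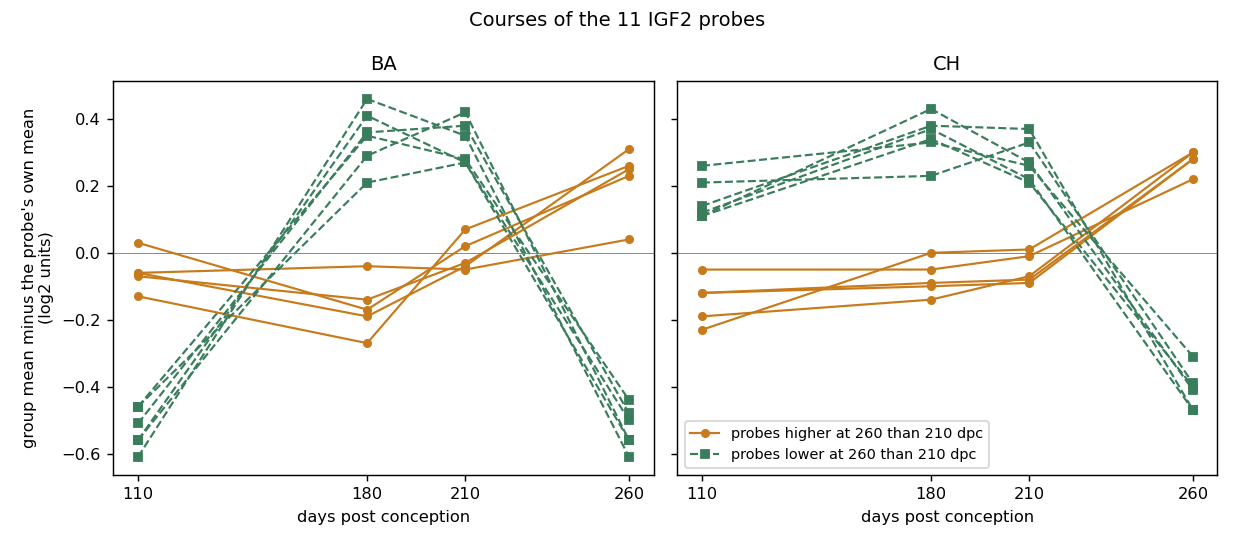
Group means of the 11 IGF2 probes less each probe's own mean over the 8 groups (y axis, log2 units) against days post conception (x axis), for BA on the left and CH on the right. Solid lines with circles are the 5 probes that were higher at 260 than at 210 dpc, and dashed lines with squares are the 6 that were lower. At 110 dpc the 6 probes lie below their own mean in BA and above it in CH.

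The receptors fell in both breeds. IGF1R, the signalling receptor, was measured by 1 probe, A_73_118287, which was well above background on all 21 arrays but close to the level of the filter. Its levels were 0.49, 0.82 and 0.32 in BA and 0.80 and 1.12 in CH at 110 dpc. At 260 dpc they were −0.45 and −0.14 in BA and −0.28, −0.61 and 0.06 in CH, all below every array at 110 dpc.

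In the fit without the filter, IGF1R fell by 1.04 ± 0.14 on the log2 scale, or 2.05-fold, from 110 to 260 dpc (limma adjusted p = 2.2e-05). In that fit 26% of named genes were called lower over the same interval. The fall was 0.84 ± 0.20 in BA and 1.24 ± 0.20 in CH. With normexp background correction, which changes dim signals most, the difference was −0.45 (adjusted p = 0.00036). Its last step, from 210 to 260 dpc, was −0.40 ± 0.14 (adjusted p = 0.043), where the same fit called 15.3% of named genes lower.

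IGF2R, the receptor that clears IGF2, fell by 0.55 ± 0.10 on the log2 scale, or 1.47-fold (limma adjusted p = 0.00014). Its levels were 7.48, 7.69 and 7.19 in BA and 7.70 and 7.82 in CH at 110 dpc, against 6.96 and 7.09 in BA and 6.97, 6.97 and 7.32 in CH at 260 dpc. The highest array at 260 dpc overlapped the lowest at 110 dpc. No single step was called for IGF2R, with differences of −0.22, −0.15 and −0.18 in turn, and 2 of its 3 probes, all of those tested, were called lower over the whole interval.

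IGFBP3, the binding protein that carries most IGF in adult blood together with the acid-labile subunit, fell late and by the largest difference among the 8 tested genes. Its levels were 7.23, 6.50 and 6.85 in BA and 6.87 and 6.92 in CH at 110 dpc, and 6.63 and 6.95 in BA and 7.0, 6.71 and 7.09 in CH at 180 dpc. At 210 dpc they were 6.52, 6.34 and 6.50 in BA and 6.38, 6.77 and 6.45 in CH. At 260 dpc they were 6.08 and 5.35 in BA and 5.2, 5.65 and 5.36 in CH, all below every array of the earlier stages.

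From 110 to 260 dpc IGFBP3 fell by 1.32 ± 0.16 on the log2 scale, or 2.49-fold (limma adjusted p = 1.1e-06). Of this, −0.93 ± 0.15 came after 210 dpc (adjusted p = 8.7e-05), whereas the difference from 110 to 180 dpc was −0.02 ± 0.16. All 5 IGFBP3 probes were called lower, with differences of −1.36 to −0.93. The fall kept its call in BA (−1.14 ± 0.22) and in CH (−1.49 ± 0.22). By the size of this difference IGFBP3 ranked 961 among the 7932 genes, followed by IGFBP7 at 1804 and the other 6 tested genes at 3153 to 6468.

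The 3 named genes with the profile closest to that of IGFBP3 were CMTM3, MRC2 and EFNA5. After centring, their levels differed from those of IGFBP3 by a root mean square of 0.19, 0.19 and 0.20 log2 units over the 21 arrays. MRC2 is a collagen uptake receptor of connective tissue cells. Its own difference from 110 to 260 dpc was −1.09, beside −1.53 for CMTM3 and −1.08 for EFNA5.

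Markers of connective tissue cells were also lower at 260 than at 110 dpc on average. All 7 listed fibroblast genes were well above background on every array, and 5 of 7 were called lower at 260 than at 110 dpc, beside 31.5% of all named genes. The differences over the 7 genes ran from −1.44 for LUM to −0.25 for COL1A1. The mean of the 7 fell from between 6.41 and 7.30 on the arrays at 110 dpc to between 5.74 and 6.39 at 260 dpc. Group means at 110, 180, 210 and 260 dpc were 6.81, 6.45, 6.61 and 6.18 in BA and 6.83, 7.06, 6.70 and 6.13 in CH. Their part in the fall of IGFBP3 and IGFBP5 was not tested.

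IGFBP2, a binding protein that prefers IGF2, had the steepest course of the 10 genes. The levels of A_73_103681 were 1.07, 0.58 and 0.52 in BA and 1.38 and 0.90 in CH at 110 dpc, and 0.74 and 0.40 in BA and 0.37, 0.23 and 0.27 in CH at 180 dpc. At 210 dpc they were −1.1, −1.0 and −1.42 in BA and −1.14, −1.04 and −1.81 in CH, the last of these not well above background. At 260 dpc the probe was not well above background on any of the 5 arrays, although it was on all 5 at 110 dpc.

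By this probe, with the level at 260 dpc set to a floor, IGFBP2 was 9.67-fold lower than at 110 dpc. The same fold was 8.3 in BA and 11.3 in CH. This floor was, on each array, the lowest signal among probes well above background, or the probe's own value where higher. The mean floor was −2.34, whereas this probe was not well above background at −1.81 on the third CH array at 210 dpc. These folds are therefore not strict lower limits. The measured means were 0.93 and −3.61, and the fit without the filter gave a limma adjusted p of 1.9e-08. In that fit IGFBP2 was also the only one of the 10 genes whose brightest probe was called between 180 and 210 dpc, with −1.68 ± 0.31 (adjusted p = 0.0072), where 2.32% of named genes were called lower. The second IGFBP2 probe, A_73_P468953, also under the filter, was still well above background on 3 of 5 arrays at 260 dpc. It fell by 1.89 ± 0.21 on the log2 scale, or 3.69-fold, from 110 to 260 dpc (adjusted p = 2.7e-06).

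IGFBP5, which binds to extracellular matrix and is made by differentiating myoblasts, lies next to IGFBP2 in the cattle assembly ARS-UCD2.0, with 0 protein-coding genes between them. Its levels were 4.24, 4.49 and 4.28 in BA and 4.68 and 4.57 in CH at 110 dpc, and 3.69, 3.87 and 3.12 in BA and 3.57, 3.75 and 3.34 in CH at 210 dpc. At 260 dpc they were 4.01 and 4.12 in BA and 3.49, 4.41 and 3.29 in CH, overlapping both earlier stages. Every array at 210 dpc lay below every array at 110 dpc.

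The difference of IGFBP5 from 110 to 260 dpc was −0.59 ± 0.18 (limma adjusted p = 0.0088), and both of its probes were called lower. It was −0.28 with slide as a block (adjusted p = 0.48) and −0.59 on the second scan day alone (adjusted p = 0.14). The steps to 180 and to 210 dpc, −0.45 and −0.48, each missed the threshold (adjusted p = 0.082 and 0.087). By exact permutation of the 5 early and 5 late arrays within breeds, two-sided, p was 0.06 for IGFBP5.

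IGFBP7, a secreted protein of vessel walls that binds IGFs only weakly, rose early. Its levels were 7.79, 7.42 and 7.5 in BA and 7.19 and 8.19 in CH at 110 dpc. At 180 dpc they were 8.58 and 8.61 in BA and 8.86, 7.89 and 8.60 in CH. The second CH array at 180 dpc, at 7.89, lay below the second CH array at 110 dpc, at 8.19, and the other 4 arrays at 180 dpc lay above all 5 at 110 dpc.

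IGFBP7 rose by 0.89 ± 0.21 from 110 to 180 dpc (limma adjusted p = 0.0042), and its difference over the whole interval was 0.92 ± 0.21 (adjusted p = 0.00082), a 1.9-fold change. From 180 to 210 and from 210 to 260 dpc the differences were 0.20 and −0.17, with neither called. With quantile normalization the whole-interval difference was 0.35 (adjusted p = 0.14), and in the authors' unscaled values 0.53 (adjusted p = 0.073). Of the 5 endothelial markers, 3 were called higher and 1 lower at 260 dpc, and their mean on single arrays lay between 2.94 and 3.25 at 110 dpc and between 3.61 and 3.79 at 180 dpc. This mean was between 3.25 and 3.87 at 210 dpc and between 2.94 and 3.31 at 260 dpc, when IGFBP7 was at 8.25 to 8.87. Their part in the rise of IGFBP7 was not tested.

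IGFBP4, an inhibitor of IGF action that the protease PAPPA cleaves, had 2 probes that disagreed. The brightest, A_73_P394806, had levels of 5.31, 5.0 and 5.07 in BA and 5.17 and 4.31 in CH at 110 dpc, and 4.83 and 5.06 in BA and 5.43, 5.15 and 5.07 in CH at 260 dpc. The groups overlapped, and the difference was 0.15 ± 0.21 (95% interval −0.29 to 0.58, limma adjusted p = 0.56). From 110 to 180 dpc this probe fell by 0.68 ± 0.21 on the log2 scale (adjusted p = 0.024). That call was lost without the first CH array at 110 dpc (−0.46, adjusted p = 0.17), the first BA array at 180 dpc (−0.61, 0.099) or the third CH array at 180 dpc (−0.55, 0.057). It was also lost without the filter (adjusted p = 0.054), in female foetuses alone (−0.49, 0.13) and in the authors' unscaled values (−0.66, 0.18). The group means went from 5.13 to 3.80 in BA and from 4.74 to 4.71 in CH, a difference between breeds in this step that was not tested.

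The second IGFBP4 probe, A_73_116582, gave 4.3, 4.07 and 4.2 in BA and 4.39 and 4.42 in CH at 110 dpc, and 3.25 and 2.92 in BA and 3.04, 3.02 and 2.88 in CH at 260 dpc. All 5 late arrays lay far below all 5 early ones, and the difference was −1.26 ± 0.11 (adjusted p = 3e-08), with −0.83 ± 0.11 of it after 210 dpc (adjusted p = 9.8e-06). This probe differed by −0.02 from 110 to 180 dpc and by −0.41 ± 0.11 from 180 to 210 dpc (adjusted p = 0.021). The mean of both probes differed by −0.56 (adjusted p = 0.00058). No single direction can therefore be given for IGFBP4.

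**Figure D3:**
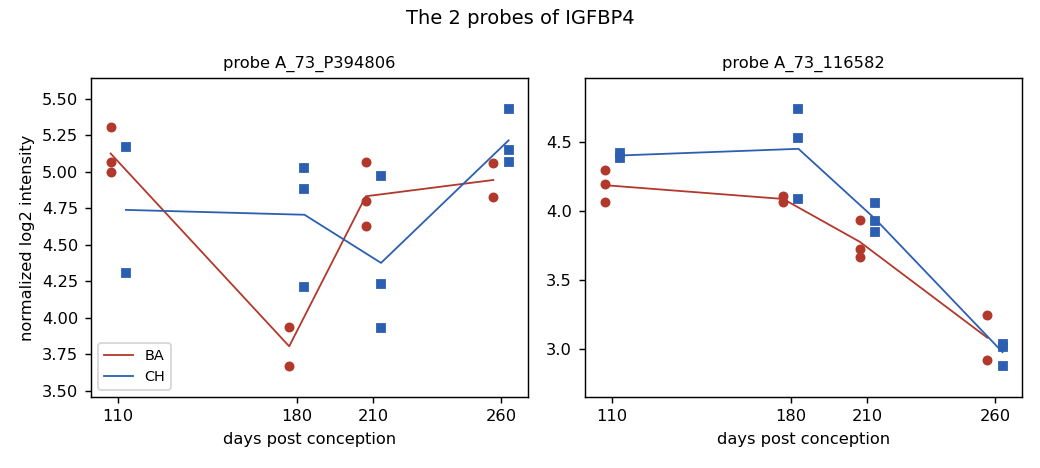
Normalized log2 intensity (y axis, separate scales) of the 2 IGFBP4 probes against days post conception (x axis), with BA foetuses as circles, CH foetuses as squares and lines through the group means. The probe on the right falls to between 2.88 and 3.25 at 260 dpc, while the probe on the left returns to its early levels.

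IGFBP6, which binds IGF2 with a strong preference, was not called in any step by either of its 2 probes. The levels of the brighter one were 7.06 to 8.10 over the 21 arrays, with a median of 7.59. Its difference from 110 to 260 dpc was −0.22 ± 0.18 (95% interval −0.60 to 0.16, limma adjusted p = 0.30). With quantile normalization it was −0.72 (adjusted p = 0.0017) and in the authors' unscaled values −0.61 (adjusted p = 0.027).

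By the exact permutation test over the early and late arrays, which allows 100 arrangements and no p under 0.01, IGF2, IGF1R, IGFBP2, IGFBP3 and IGFBP7 reached that smallest p. The exact p was 0.02 for IGF1 and IGF2R, 0.28 for IGFBP6 and 0.61 for IGFBP4, all two-sided, over 10 genes so tested.

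Taken separately, BA and CH each had 4 to 5 of the 8 tested genes called between 110 and 260 dpc, beside 54.1% of all named genes in BA and 53.6% in CH. In both breeds IGF2R, IGFBP3 and IGFBP7 were called. IGF1 was called in BA (0.44, adjusted p = 0.011) and not in CH (0.18, adjusted p = 0.28). IGF2 by its brightest probe was called higher, and IGFBP5 lower, in CH and not in BA. Over all 11 IGF2 probes, 2 were called higher and 0 lower in BA, and 4 higher and 5 lower in CH. The test of the difference between the breeds' changes called none of the 8 genes and 0% of all named genes. By their brightest probes none of the 8 had an unadjusted p under 0.05, so these unequal lists are not shown to be a breed difference.

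The breed comparison asked whether the more muscular BA foetuses differed in this growth system. None of the 8 tested genes was called on average over the 4 stages, beside 0.177% of all named genes called higher in BA and 0.227% lower. At single stages none of the 8 was called either, beside 0.24% of named genes at 110 dpc, 0.0252% at 180 dpc and 0% at 210 and at 260 dpc. At an unadjusted p under 0.05, 2 of the 8 genes differed on average, IGF2R and IGF1, both lower in BA, beside 12% of all 7932 genes. By stage, 1 of the 8 reached this limma p at 110 dpc, beside 11.9% of genes. At 180 dpc it was 3 of the 8, IGF1, IGF2R and IGFBP4, all lower in BA, beside 6.3%. At 210 and 260 dpc it was 0 of the 8, beside 5.48% and 5.7%.

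IGF2R had a mean of 7.22 in BA and 7.42 in CH, a difference of −0.21 ± 0.07 (95% interval −0.36 to −0.06, limma adjusted p = 0.22). CH was higher at all 4 stages, and at 3 of them, 110, 180 and 210 dpc, the group means were 7.45 and 7.76, 7.22 and 7.55, and 7.17 and 7.30 in BA and CH. At 180 dpc the 2 BA arrays were at 7.15 and 7.29 and the 3 CH arrays at 7.57, 7.69 and 7.38, and no BA array reached a CH array at these 3 stages. The two-sided exact permutation of breeds within stages gave p = 0.0081 over 20000 arrangements, the smallest of the 10 genes so tested. Leaving out single arrays gave −0.24 to −0.17, none of them called. The second tested IGF2R probe differed by −0.19 ± 0.11 (adjusted p = 0.50) and the third, under the filter, by −0.01 ± 0.13.

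IGF1 had a mean of 2.70 in BA and 2.84 in CH, a difference of −0.14 ± 0.07 (95% interval −0.28 to 0.00, limma adjusted p = 0.39, two-sided exact permutation p = 0.057). It was lower in BA at 110, 180 and 210 dpc and higher at 260 dpc, with the widest gap at 180 dpc (−0.33, adjusted p = 0.75). The other 6 tested genes differed by −0.08 to 0.03 on average. Their 95% intervals ran from −0.39 at the lowest to 0.31 at the highest, and for each gene a difference inside its own interval is not excluded. In the unfiltered fit the average differences of IGF1R and IGFBP2 were 0.02 and 0.03.

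**Figure D4:**
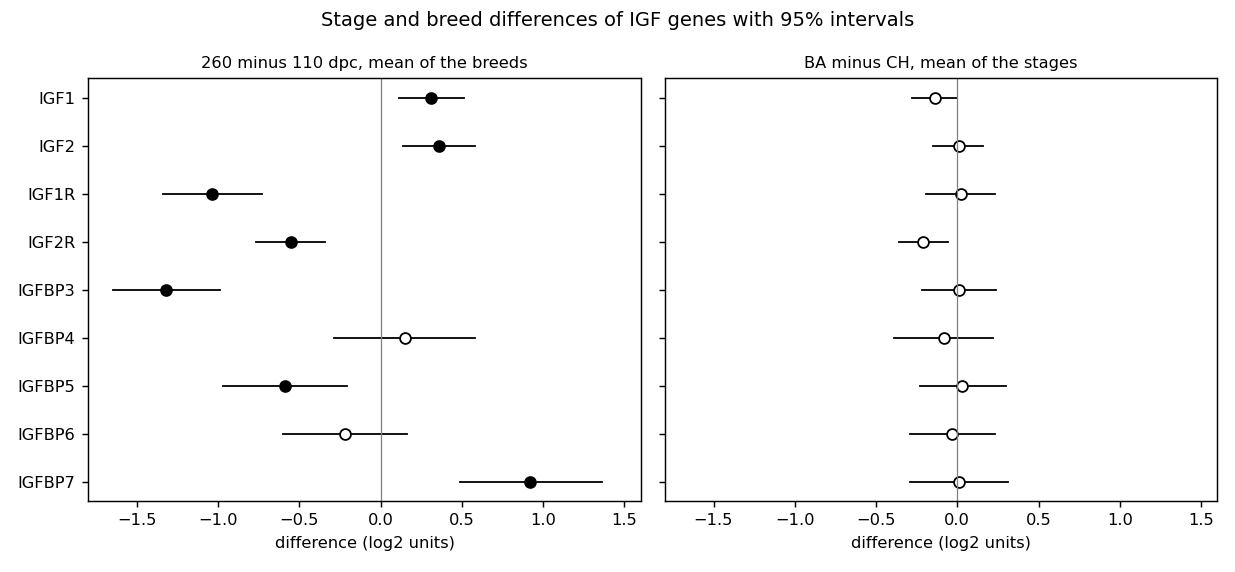
Difference in log2 units (x axis) with its 95% interval for 9 of the 10 genes, on the left between 260 and 110 dpc averaged over the breeds, and on the right between BA and CH averaged over the stages. Filled circles were called by limma. The breed differences all lie between −0.21 and 0.03, and IGFBP2, whose brightest probe was not well above background at 260 dpc, is left out.

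The widest breed gaps in the system stood at single stages and were not called. For IGFBP4 at 180 dpc, the levels were 3.67 and 3.94 in BA and 5.03, 4.88 and 4.21 in CH, a difference of −0.90 ± 0.29 (limma adjusted p = 0.66). The second IGFBP4 probe differed by −0.36 ± 0.16 there (adjusted p = 0.77).

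For IGF2, the 6 probes that peaked in mid-gestation were lower in BA than in CH at 110 dpc, with differences of −0.77 to −0.57, and for each of the 6 every BA array lay below every CH array. For A_73_P102806 the levels were 8.03, 8.08 and 7.85 in BA and 8.82 and 8.69 in CH. The unadjusted p-values were 0.0013 to 0.0076 and the limma adjusted p-values 0.12 to 0.20, so none was called. At 180, 210 and 260 dpc the differences of these probes lay between −0.25 and 0.17. The other 5 IGF2 probes differed by 0.00 to 0.22 at 110 dpc. The breeds' changes from 110 to 260 dpc differed by 0.46 to 0.66 for the 6 probes, with adjusted p-values of 0.68 to 0.81. The unadjusted limma p was under 0.05 for 4 of the 6, the lowest at 0.033, beside 7.27% of all named genes. These probes share their arrays and their gene, and were grouped after their values were seen, so they are not separate evidence.

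At 110 dpc both CH foetuses were female, as was the second BA foetus, at 8.08 for A_73_P102806, while the other 2 BA foetuses were male. Among female foetuses alone the 6 differences at 110 dpc were −0.71 to −0.43. The mean of the 3 myoblast markers MYF5, MYOD1 and MYOG was also lower in BA at 110 dpc, at 4.71 to 5.2 on the BA arrays and 5.61 to 6.71 on the CH arrays. At 180 dpc this mean was higher in BA, at 5.58 to 5.67 against 5.1 to 5.13 in CH, and at 210 and 260 dpc the breeds overlapped. Averaged over the stages, MYOD1 differed by −0.57, MYF5 by −0.05 and MYOG by 0.04 between BA and CH, with none called. The part of these markers in the IGF2 difference at 110 dpc was not tested.

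Of 40 other genes of the pathway listed from their symbols, 27 had a named probe and 19 were tested. From 110 to 260 dpc 7 of the 19 rose, 5 fell and 7 were not called, beside 33.8% higher and 31.5% lower among all named genes, with a median difference of 0.00, and none of the 19 was called between the breeds. Upstream of the ligands, the growth hormone receptor GHR differed by 0.00 ± 0.16, and STAT5B, which relays its signal, rose by 0.97 ± 0.17 (limma adjusted p = 0.00011).

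The largest fall among the 19 was that of IGF2BP3, a foetal protein that binds IGF2 mRNA. It went from a mean of 5.22 to 2.29, a difference of −2.93 ± 0.15 (adjusted p = 4.1e-11). Its relative IGF2BP1, named here after its values were seen, was under the filter. It was well above background on all 5 arrays at 110 dpc and on none at 260 dpc, 14.1-fold lower with the floor used for IGFBP2. IGF2BP2 was well above background on 5 and 1 of these arrays, with means of −0.61 and −2.79.

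ADAM12, a protease that cleaves binding proteins IGFBP3 and IGFBP5, fell by 1.5 ± 0.16 on the log2 scale (adjusted p = 3.3e-07), and STC1, a stanniocalcin that inhibits PAPPA, by 0.61 ± 0.16. PAPPA itself, the receptor INSR and the adaptor IRS1 had no named probe. Among adaptors of the receptor, the inhibitory GRB10 rose by 1.07 ± 0.16 (adjusted p = 1.4e-05), and SHC1, which links it to the Ras pathway, fell by 0.75 ± 0.10 on the log2 scale.

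None of the 3 tested genes of the lipid kinase branch was called, with differences of −0.07 for AKT1 to 0.32 for PIK3R1. In the growth kinase branch RHEB, the activator of the kinase MTOR, rose by 0.76 ± 0.08 (adjusted p = 3.3e-07), and the other 2 were not called. FOXO3, a transcription factor that IGF signalling holds out of the nucleus, rose by 0.47 ± 0.14. Both listed ubiquitin ligases of fibre protein rose, FBXO32 by 0.88 ± 0.26 (adjusted p = 0.0064) and TRIM63 by 3.19 ± 0.20 (adjusted p = 5.1e-10). Of the 5 fibre markers, 4 were called higher over the same interval, beside 33.8% of all named genes, and MYH3, the embryonic myosin heavy chain, was called lower (−0.83). Their part in these rises was not tested.

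**Figure D5:**
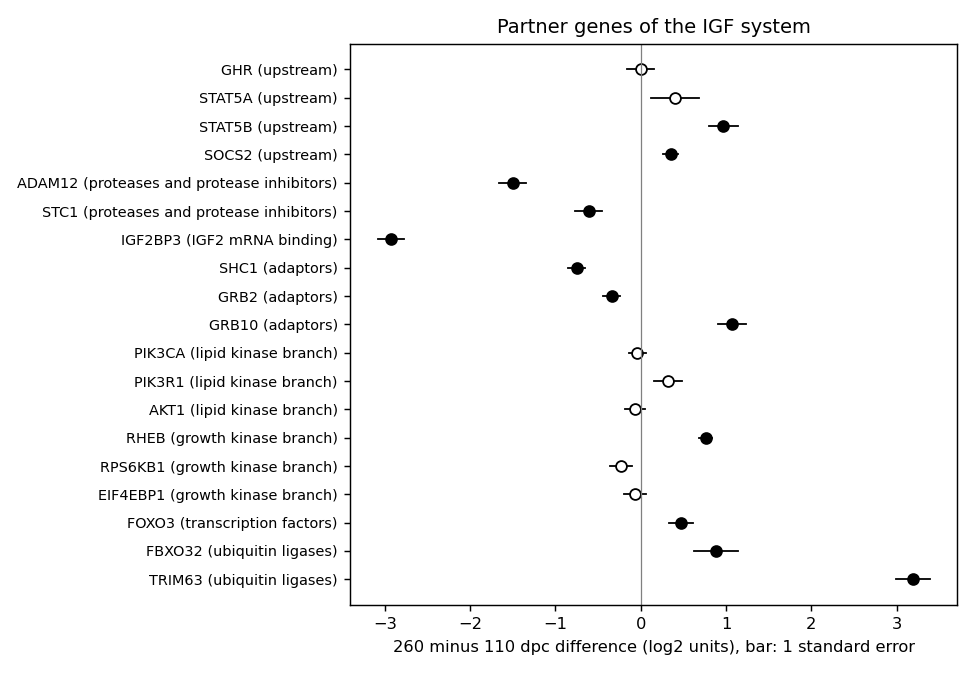
Difference between 260 and 110 dpc averaged over the breeds (x axis, log2 units) with 1 standard error for the 19 tested partner genes of the IGF system, with their role in brackets. Filled circles were called by limma, and the differences run from −2.93 for IGF2BP3 to 3.19 for TRIM63.

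Liver makes much of the circulating IGF1, as well as IGFBP1 and the acid-labile subunit encoded by IGFALS. The liver marker ALB was well above background on 10 of 21 arrays, and the mean of 3 liver markers fell from between 1.23 and 2.38 on the arrays at 110 dpc to between −0.64 and 0.31 at 260 dpc. Of the 3, APOA1 was called lower (−1.87) and TTR was not called (−0.51). ALB, under the filter, differed by −2.5. IGFBP1 was well above background on 2 of 21 arrays and IGFALS on 14, both under the filter. The part of liver RNA in the IGF levels was not tested.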

How the data were processed

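Single-colour 4x44K bovine arrays measured muscle RNA of 21 foetuses. The authors made the deposited intensity values with Feature Extraction 10.7, per the labels, with background and multiplicative detrending and no subtraction of background. The deposited value table of the authors holds log2 values of the same intensities, unscaled, and was used as an alternative. Control spots and 258 outlier spots were left out, spots of a probe were averaged, and log2 intensities were scaled to the 75th percentile of each array (525 to 1174 intensity units). Probes were named through accessions and the annotation of ARS-UCD2.0, and no positions are given because the array was designed on another assembly.

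A mean for each of the 8 groups was fitted to the 21 arrays with limma (version 3.58.1, R 4.3.3, with data.table version 1.17.8 and jsonlite 2.0.0 to read files). The fit had 13 residual and 3.79 prior degrees of freedom. Simulated data had 200 of 20052 probes shifted by 1.5 log2 units. The comparison of 260 with 110 dpc recovered 198 with 9 false calls, and the average breed comparison 200 with 15. This shift exceeded the largest whole-interval and average breed differences of the 8 tested genes, −1.32 for IGFBP3 and −0.21 for IGF2R. Recovery at those sizes was not measured. The number of arrays limits the precision. The labels call the foetuses of a group biological replicates. The genes, the partner list, the marker lists and the tests were chosen with earlier results of these data known. Of the partners, those called between breeds and then the 10 largest called changes were named. GHR, AKT1 and PIK3R1, not called, and IGF2BP1, IGF2BP2, IGFBP1 and IGFALS, under the filter, were named outside this rule. PAPPA, INSR and IRS1, without a named probe, were named outside it too. For a member called with a difference above 1, the 3 genes closest in profile were named. Foetuses were not paired by their replicate numbers: deviations from the group means correlated with a median of 0.027 over 66 equal-numbered pairs and −0.0031 over 126 others. Alternatives covered background correction, scaling, filters, sex, slide, scan day, replicate block, sire, variance, probe choice, each array left out, and, chosen after seeing the data, the second scan day alone.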

Additional observations from a re-analysis of the deposited data

How the results depend on the processing

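Every call of IGFBP3 and IGF2R, and those of IGF1R and IGFBP2 where they had a value, remained from 110 to 260 dpc in all alternatives run. With quantile normalization 1 gene was higher and 5 lower, 6 changed from 210 to 260 dpc, IGF2 was −0.18 over the whole interval and IGFBP4 −0.01. From 210 to 260 dpc the IGF2 probes were then at −0.16 (brightest), −0.35, −0.12, −0.16 and −0.18. In the authors' values 0 genes were higher, 1 changed from 110 to 180 dpc, 3 partners rose, 1 of IGF1R and IGFBP2 had a called fall, IGF1 was −0.08, IGF2 −0.03 and IGFBP4 −0.24, and the same IGF2 probes were at −0.09, −0.24, −0.05, −0.12 and −0.17 after 210 dpc. Over all tested probes 2492 were called higher and 7916 lower in those values, against 6708 and 6198 otherwise, and with median scaling 7629 and 4967, where 5 genes changed from 210 to 260 dpc.

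Without a filter, and with one on detection, 5 genes were lower, 1 changed from 180 to 210 dpc, 5 from 210 to 260 dpc, and 9 partners fell, because dim genes entered. With slide as a block 3 partners fell. On the second scan day alone 1 gene changed from 210 to 260 dpc and IGFBP4 was −0.19 from 110 to 260 dpc. On that day the fall of IGF1 after 210 dpc was −0.34 (limma adjusted p = 0.12). The late rise of IGF2 was 0.27 with slide (adjusted p = 0.056) and 0.25 with scan day as a block (adjusted p = 0.058), and the early rise of IGFBP7 was 0.93 in female foetuses (adjusted p = 0.068). In them IGFBP6 was 0.03 from 110 to 260 dpc. The mean over probes gave IGF2 0.00 from 110 to 260 dpc, −0.30 from 210 to 260 dpc (adjusted p = 0.012), and IGFBP4 −0.56.

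No breed difference was called in any alternative, and those near 0 changed sign. They were −0.03 with median scaling and −0.10 over all probes for IGF2, −0.03, −0.10 and −0.01 (females) for IGFBP3, 0.02 for IGFBP4 and −0.08 for IGFBP5 on the second scan day, −0.01 for IGFBP5 with median scaling and with scan day as a block, and −0.03, −0.02 and −0.01 for IGFBP7. For IGFBP6 they were 0.03 with normexp and in the authors' values, 0.05 with quantile normalization, 0.02 with sex as a covariate, 0.00 in females and 0.01 with scan day. Leaving out single arrays gave breed differences of −0.04 to 0.05 for IGF2, −0.08 to 0.10 for IGFBP3, −0.19 to 0.02 for IGFBP4, −0.02 to 0.12 for IGFBP5, −0.09 to 0.03 for IGFBP6 and −0.11 to 0.14 for IGFBP7. IGFBP4 then differed by −0.07 to 0.36 from 110 to 260 dpc, and 0 to 1 genes changed from 180 to 210 dpc, 1 without the second CH array at 260 dpc. The replicate block changed no call from 110 to 260 dpc, with 3 genes higher and 3 lower, and IGFBP3 at −1.32.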
